A study of Mus musculus with 20 samples.

Results

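The expression of 8 podocyte genes was followed in 10 kidney tumors and 10 normal kidneys from mice of the Cre-less AAV model. The genes were chosen by name from the 54532 genes of the count table, as genes of the slit diaphragm and of podocyte identity. They were Nphs1, Podxl, Ptpro, Magi2, Synpo, Plce1, Wt1 and Cdkn1c. Mice of both groups were of the C57BL/6 strain with the alleles LSL-Cas9/+ and Pax8 Cre/+. Cas9 and EGFP were thus made in cells that express Pax8. For Pax8 in the adult mouse kidney the study names proximal tubules, collecting ducts, medulla and papilla. It names parietal cells of Bowman's capsule for the human kidney. An adeno-associated virus (AAV) carrying sgRNAs for Vhl, Pbrm1, Keap1 and Tsc1 was injected into the kidney. The 10 tumors and the 10 normal kidneys were collected from a cohort of 10 mice of this model, so that both groups shared the alleles. The sample titles do not say whether the normal tissue came from an injected kidney. Age and sex were not given in the labels. RNA of pulverized whole tissue was sequenced, and neither podocytes nor glomeruli were isolated.

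Podocytes are the epithelial cells that wrap the capillaries of the glomerulus. Their interdigitating foot processes are joined by the slit diaphragm, a modified cell junction that forms the last layer of the filter between blood and urine. Podocytes are held to be postmitotic, and a set of transcription factors that includes Wt1 keeps up their differentiated state. In whole kidney they are a small minority of cells, next to the far more numerous tubule cells.

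The 8 genes hold different places in this cell. Nphs1 (ENSMUSG00000006649, chromosome 7, 30458315 to 30487223 on GRCm38, plus strand) encodes nephrin, the transmembrane protein that spans the slit. Magi2 (ENSMUSG00000040003, chromosome 5, 19227036 to 20704792, plus strand) encodes a scaffold that binds nephrin inside the cell. Podxl (ENSMUSG00000025608, chromosome 6, 31519488 to 31563981, minus strand) encodes podocalyxin, the charged sialomucin of the foot process surface, which is also made by endothelium. Ptpro (ENSMUSG00000030223, chromosome 6, 137252319 to 137463233, plus strand) encodes a receptor tyrosine phosphatase of the same surface. Synpo (ENSMUSG00000043079) encodes synaptopodin, an actin-binding protein of foot processes. Plce1 (ENSMUSG00000024998, chromosome 19, 38481109 to 38785030, plus strand) encodes phospholipase C epsilon, which is mutated in an inherited nephrotic syndrome. Wt1 (ENSMUSG00000016458, chromosome 2, 105126529 to 105173616, plus strand) encodes a zinc finger transcription factor that is also made in mesothelium. Cdkn1c (ENSMUSG00000037664, chromosome 7, 143458339 to 143461050, minus strand) encodes the imprinted cell cycle inhibitor p57.

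Start regions are shown for 3 genes that were lower in tumors (Nphs1, Ptpro and Plce1) and for Magi2, which did not pass the test, since Wt1 protein is known to bind G-rich DNA and its own gene is among the 8. The windows reach from 250 bases before to 50 bases after a RefSeq transcription start on GRCm38.p6 and are all on the plus strand. They lie at chr7:30459808-30460107 for Nphs1, chr6:137252049-137252348 for Ptpro, chr19:38523947-38524246 for Plce1 and chr5:19226796-19227095 for Magi2. Capitals mark matches to GNGNGGGNG, a degenerate form of the WT1 and EGR motifs GCGGGGGCG and GCGTGGGCG, or to CNCCCNCNC, which is the same motif on the minus strand. RefSeq windows were found for 4 of the 8 genes. For Magi2 there are 2, and the one farther upstream is shown. The start used for Plce1 (38524197) and that for Nphs1 (30460058) lie inside the gene bounds given above. Their windows are therefore not at the first base of the gene.
Nphs1: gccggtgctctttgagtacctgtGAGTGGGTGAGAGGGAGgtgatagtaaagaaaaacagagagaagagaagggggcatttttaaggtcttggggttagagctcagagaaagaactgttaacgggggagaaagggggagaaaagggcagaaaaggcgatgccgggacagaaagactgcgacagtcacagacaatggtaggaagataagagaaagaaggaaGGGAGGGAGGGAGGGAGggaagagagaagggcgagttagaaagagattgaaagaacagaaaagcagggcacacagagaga
Ptpro: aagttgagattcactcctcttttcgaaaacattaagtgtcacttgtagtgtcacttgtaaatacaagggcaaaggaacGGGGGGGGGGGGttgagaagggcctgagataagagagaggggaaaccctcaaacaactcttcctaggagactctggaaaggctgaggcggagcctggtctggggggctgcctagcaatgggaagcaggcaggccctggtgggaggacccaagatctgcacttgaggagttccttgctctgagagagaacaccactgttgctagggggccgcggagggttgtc
Plce1: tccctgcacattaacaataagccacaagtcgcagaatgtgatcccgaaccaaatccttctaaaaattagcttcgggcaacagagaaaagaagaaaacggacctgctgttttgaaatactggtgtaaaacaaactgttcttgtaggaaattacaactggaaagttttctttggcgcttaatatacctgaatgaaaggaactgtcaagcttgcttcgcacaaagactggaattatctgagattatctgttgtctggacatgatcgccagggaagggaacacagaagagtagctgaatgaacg
Magi2: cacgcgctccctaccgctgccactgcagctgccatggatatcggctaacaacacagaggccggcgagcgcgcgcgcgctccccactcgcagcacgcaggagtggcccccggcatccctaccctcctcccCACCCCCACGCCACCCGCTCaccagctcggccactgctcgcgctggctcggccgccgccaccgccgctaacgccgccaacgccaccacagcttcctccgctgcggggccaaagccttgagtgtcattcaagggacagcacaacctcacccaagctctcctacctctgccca
The Nphs1 window holds 5 matches, of which 3 overlap in a repeat of GGGA just before the start. In Ptpro 4 overlapping matches fall in a single run of G. The Magi2 window holds 3 matches on the minus strand, 2 of which overlap, and that of Plce1 holds 0. The Magi2 window that is not shown, at chr5:19907268-19907567, holds 2 matches on the minus strand and has a GC content of 43.0%. Of all 32851 RefSeq windows of this length 39.6% hold at least 1 match. GC content was 69.3% in the Magi2 window shown, 54.7% in Ptpro, 49.7% in Nphs1 and 41.0% in Plce1, against a median of 52.7% over all windows. These matches are letters in a window, not sites.

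All 8 genes had counts in normal kidneys and passed the filter on low counts. Expression is given as CPM, the counts of a gene relative to the size of the library after scaling by TMM factors, and as log2 CPM with a prior count of 2. Total counts per library lay between 14737516 and 26679704 in normal kidneys and between 18447394 and 24902973 in tumors. Normal kidney 9 stood apart. Its TMM factor was 0.749, against 1.03 to 1.14 in the other 9 normal kidneys. Deviations of its genes from their median over all 20 libraries were taken on the log2 scale. Their median was -0.70 for genes of at least 5000 bases and 0.94 for genes under 2000 bases. In the other normal kidneys these medians lay between -0.07 and 0.06. Tumor 7 differed from the other 9 tumors in stromal genes, as described with the markers. Values are therefore also given without these libraries.

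Compared per kilobase of the gene length in the count table, Podxl was the most abundant of the 8 genes in normal kidneys. Its median was 70.7 CPM per kb (65.3 to 93.6 without kidney 9). Cdkn1c (12.7) and Synpo (11.4 CPM per kb) came next and overlapped, followed by Nphs1 at 6.51, Ptpro at 4.07, Wt1 at 2.95, Magi2 at 1.41 and Plce1 at 1.01 CPM per kb. Without kidney 9 the ranges of neighbours in this order overlapped, except between Podxl and Cdkn1c, between Synpo and Nphs1 and between Wt1 and Magi2. The order differed in tumors. Synpo was highest, at 16.2 CPM per kb, followed by Podxl at 8.44, Magi2 at 1.07, Cdkn1c at 0.847 and Wt1 at 0.732 CPM per kb. Ptpro (0.260), Plce1 (0.0829) and Nphs1 (0.0510 CPM per kb) were lowest, and Nphs1 had moved from the fourth place to the last.

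The study compared the tumors with the normal kidneys across all genes, and the comparison is given here for podocyte genes. Of the 8 genes, 6 had a lower level in tumors with an adjusted p under 0.05 (quasi-likelihood test of edgeR, adjusted by Benjamini-Hochberg over 15354 genes) and 0 were higher, as with DESeq2 and limma-voom. Among all genes tested 23.8% were lower and 23.6% higher. Nphs1, Ptpro, Cdkn1c, Podxl, Plce1 and Wt1 fell, whereas Synpo and Magi2 did not pass the test. At an unadjusted p under 0.05 Synpo was also past the threshold, in the opposite direction. Every tumor was below every normal kidney for 2 of the 8 genes, against 4.74% of all genes tested, and for 6 of the 8 when kidney 9 was left out, against 6.12%. In bulk tissue, fewer podocytes and less RNA per podocyte cannot be told apart.

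**Figure D1:**
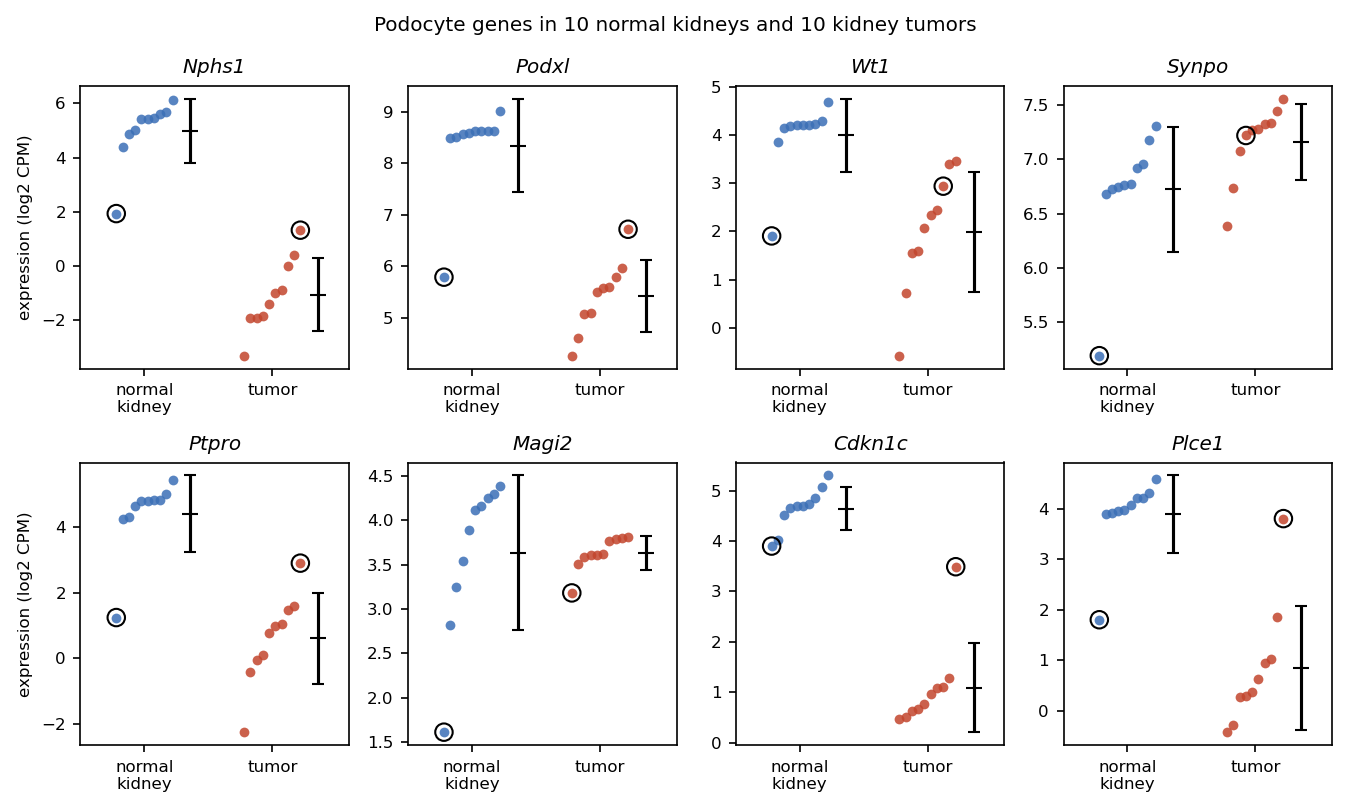
Expression (log2 CPM, prior count 2) of the 8 podocyte genes in 10 normal kidneys (blue) and 10 tumors (red). Each point is a library, sorted by value within its group, bars give the mean and SD, and circles mark normal kidney 9 and tumor 7. Kidney 9 was the lowest normal kidney for all 8 genes, and tumor 7 the highest tumor for 5 of them.

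Of the slit diaphragm genes, Nphs1 fell the most. In normal kidneys it ranged from 3.71 CPM (kidney 9) over a median of 43.1 to 69.9 CPM (kidney 3), and the other 9 kidneys were all at or above 20.7 CPM. In tumors it ranged from 0 (tumor 4) over a median of 0.338 to 2.39 CPM (tumor 7). The groups did not overlap. The 0 counts of tumor 4 allow a level of up to 0.129 CPM (3 counts, counting error only). The log2 fold change was -5.95 (standard error, SE, 0.609, adjusted p = 7.2e-08), or 61.9-fold lower, and without tumor 7 it was 94.8-fold lower. The median tumor had 0.784% of the median normal kidney. These levels rest on few reads, since no tumor had more than 56 counts of Nphs1. A processed pseudogene, Rps12-ps4, lies antisense within Nphs1 and had a median of 0.339 CPM in tumors against 0.792 CPM in normal kidneys. Whether the counting used strand is not given in the sources used here.

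Magi2, the scaffold under the slit diaphragm, did not pass the test. It ranged from 2.95 CPM (kidney 9) over a median of 16.0 to 20.7 CPM in normal kidneys, and from 8.96 CPM (tumor 7) over a median of 12.2 to 14.0 CPM in tumors. The range of the normal kidneys (SD 0.87 log2 CPM, against 0.19 in tumors, n = 10 each) took in all 10 tumors. Its log2 fold change was -0.18 (SE 0.242, adjusted p = 0.57). With limma-voom and quality weights, which give libraries that fit poorly less weight, Magi2 was lower in tumors (log2 fold change -0.48, adjusted p = 0.0014), and its adjusted p ran from 0.0014 to 0.97 over the alternatives.

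Podxl and Ptpro, both of the foot process surface, were both lower in tumors. Podxl ranged from 55.1 CPM (kidney 9) over a median of 388.1 to 513.6 CPM in normal kidneys, and from 19.1 over 46.3 to 105.1 CPM (tumor 7) in tumors. The other 9 normal kidneys held to 358.4 CPM or more, so that only kidney 9 overlapped with tumors. Podxl had a log2 fold change of -2.93 (SE 0.322, adjusted p = 2.1e-07), or 7.62-fold lower. With a median of 46.3 CPM it was still readily detected in tumors. Its known expression in endothelium is a further source in both tissues, and the 5 endothelial markers, none of which was at 0 in any library, summed to 183.4 to 681.7 CPM in tumors (median 277.2) against 281.7 to 461.0 CPM in normal kidneys (median 401.1). Their part in Podxl was not tested.

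Ptpro ranged from 2.26 CPM (kidney 9) over a median of 27.4 to 42.8 CPM in normal kidneys and from 0.111 CPM (tumor 5) over a median of 1.75 to 7.34 CPM (tumor 7) in tumors. In 7 of 10 tumors it was below every normal kidney, and in 10 of 10 when kidney 9 was left out. Its log2 fold change was -3.57 (SE 0.513, adjusted p = 7.2e-06), an 11.9-fold lower level.

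Synpo acts on the actin of foot processes and Plce1 in signaling below the membrane, and only Plce1 passed the test. Synpo ranged from 36.4 CPM (kidney 9) over a median of 108.7 to 158.6 CPM in normal kidneys and from 83.7 CPM (tumor 2) over a median of 154.8 to 188.3 CPM (tumor 8) in tumors. In 4 tumors it was above every normal kidney, and the remaining tumors lay within their range. The log2 fold change of Synpo was 0.39 (SE 0.188) with an adjusted p of 0.090. Synpo was higher in tumors with a correction for gene length (log2 fold change 0.36, adjusted p = 0.041) and without tumor 2 (0.46, adjusted p = 0.042). The call with the length correction was lost when same-numbered libraries were also fitted as pairs (replicate block, 0.36, adjusted p = 0.086), and the adjusted p of Synpo ran from 0.041 to 0.39 over the alternatives. Plce1 ranged from 3.39 CPM (kidney 9) over a median of 16.2 to 24.2 CPM in normal kidneys. In tumors it ranged from 0.646 over a median of 1.33 to 13.9 CPM, and the last value, in tumor 7, was far above the 3.55 CPM of the next tumor. The log2 fold change of Plce1 was -2.55 (SE 0.503, adjusted p = 0.00027), or 5.86-fold lower, and without tumor 7 it was 10.7-fold lower.

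Both regulators, Cdkn1c and Wt1, were lower in tumors. Cdkn1c ranged from 14.8 CPM (kidney 9) over a median of 25.8 to 39.4 CPM in normal kidneys and from 1.29 over a median of 1.73 to 11.1 CPM (tumor 7) in tumors. The groups did not overlap, and the other 9 tumors lay close together, at or below 2.34 CPM. Its log2 fold change was -3.27 (SE 0.379, adjusted p = 4.2e-07), or 9.67-fold lower, and 15.1-fold without tumor 7. Wt1 ranged from 3.64 CPM (kidney 9) over a median of 18.3 to 25.6 CPM in normal kidneys and from 0.570 CPM (tumor 2) over a median of 4.54 to 10.8 CPM (tumor 10) in tumors. The SD of Wt1 was 1.24 log2 CPM in tumors and 0.76 log2 CPM in normal kidneys (n = 10 each). The log2 fold change of Wt1 was -1.75 (SE 0.393, adjusted p = 0.00096), or 3.37-fold lower, and the median tumor had 24.8% of the median normal kidney.

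**Figure D2:**
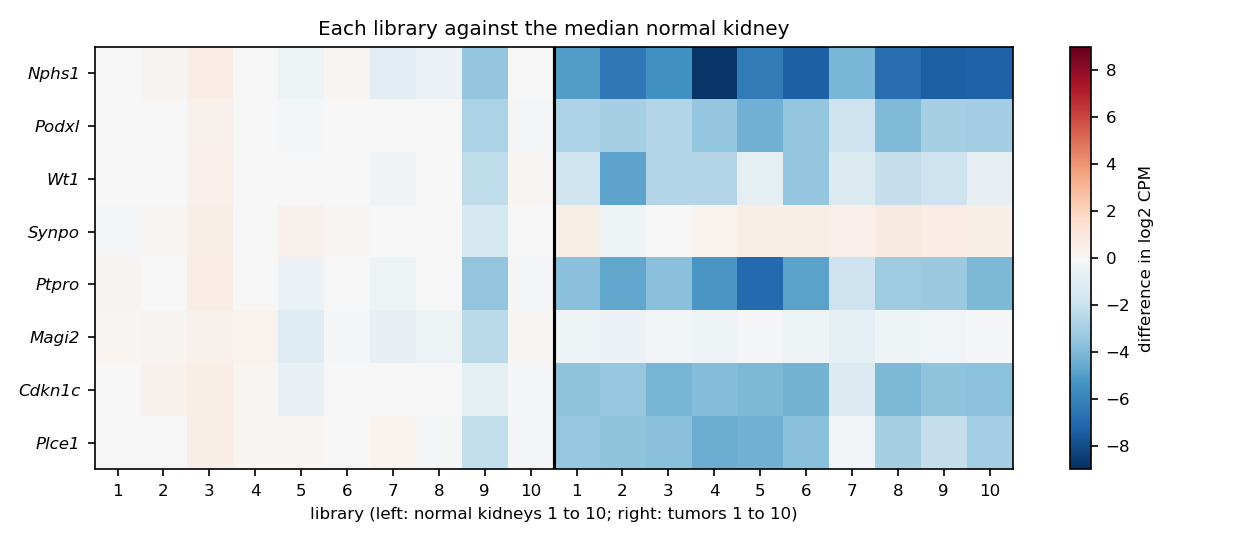
Difference in log2 CPM between each library (columns) and the median of the 10 normal kidneys for the 8 podocyte genes (rows). Blue is lower and red higher. Tumors were lowest for Nphs1 and near the normal kidneys for Synpo and Magi2, kidney 9 was low in every row, and tumor 7 was nearer to the normal kidneys than other tumors for Nphs1, Podxl, Ptpro, Cdkn1c and Plce1.

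The amounts were compared directly as the ratio of each gene to Nphs1 within a library, which does not depend on how libraries are scaled. All 7 ratios were higher in tumors (two-sided permutation tests of the mean log2 ratio, adjusted over 7). The difference in log2 ratio was 6.50 for Synpo, 6.05 for Magi2, 4.06 for Wt1, 3.13 for Podxl and 3.01 for Plce1, each with a permutation p of 1e-05, the smallest these permutations can give (adjusted p = 1.4e-05), and for these 5 genes each of the 10 tumors was above every normal kidney. Cdkn1c differed by 2.51 (permutation test, adjusted p = 0.00013, 7 of 10 tumors above every normal kidney) and Ptpro by 2.26 (adjusted p = 0.00037, 9 of 10 tumors). Nphs1 was thus reduced by more than each of the other 7 genes. Levels of the other 7 genes relative to normal kidneys were unequal, and which cells made this RNA was not tested. The median tumor had 6.38% of the median normal kidney for Ptpro, 6.69% for Cdkn1c, 8.19% for Plce1, 11.9% for Podxl, 24.8% for Wt1, 76.0% for Magi2 and 142.5% for Synpo.

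Other genes of the podocyte were read in the same fit, from 47 genes listed by role. Of these, 44 were tested, 20 were lower in tumors and 13 were higher, against 23.8% and 23.6% of all genes tested. Their median log2 fold change was -0.45 against -0.02 over all genes tested. Scaling by library totals, which shifts the median of all genes to -0.14, left 7 that were higher. Among these listed genes the falls were larger than the rises. A log2 fold change below -2 was seen for 13 of the lower genes, and 0 of the higher genes had one above 2. The shares of all genes tested past -2 and 2 were not counted, so the 13 and the 0 cannot be read as particular to podocyte genes.

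Of the slit diaphragm partners, 3 of 9 tested genes were lower and 1 was higher, against 23.8% and 23.6% of all genes tested. The list includes general junction and adaptor genes, and 5 of its genes did not pass the test.

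Of the transcription factors of the podocyte 6 of 7 were lower and 0 were higher, against 23.8% and 23.6% of all genes tested. Their median log2 fold change was -3.41. Lmx1b, a LIM homeodomain factor that is mutated in nail-patella syndrome, had a median of 4.69 CPM in normal kidneys and of 0.0562 CPM in tumors, with 4 tumors at 0 counts. Its log2 fold change was -5.00 (SE 0.663, adjusted p = 2.6e-06). Tcf21, a basic helix-loop-helix factor of podocytes that is also made in stromal cells, had a median of 18.1 CPM in normal kidneys and 1.06 CPM in tumors (log2 fold change -3.41, SE 0.457, adjusted p = 2.9e-06). The remaining factor did not pass the test.

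Among secreted factors and receptors, 5 of 7 genes were lower and 2 were higher, against 23.8% and 23.6% of all genes tested. Robo2, a receptor that binds to the nephrin complex, had a median of 16.8 CPM in normal kidneys and 0.277 CPM in tumors, and its log2 fold change was -4.66 (SE 0.659, adjusted p = 6.0e-06). Genes of the basement membrane and its receptors were split, with 3 of 10 lower and 5 higher. Col4a3, a chain of the mature glomerular collagen IV network, fell from a median of 230.2 to 35.5 CPM (log2 fold change -2.59, SE 0.293, adjusted p = 3.0e-07). Col4a5, its partner chain, rose from a median of 50.8 to 90.9 CPM (log2 fold change 1.05, SE 0.223, adjusted p = 0.00056). Agrn, the heparan sulfate proteoglycan of the same membrane, rose from 170.5 to 374.9 CPM (log2 fold change 1.06, SE 0.179, adjusted p = 5.1e-05). Collagen IV and agrin are also made by tubule and vascular cells.

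Of the actin and foot process proteins, 3 of 11 were lower and 5 were higher, against 23.8% and 23.6% of all genes tested. The largest rise was that of Clic5, a chloride intracellular channel protein that binds ezrin, from a median of 127.0 to 261.6 CPM (log2 fold change 1.19, SE 0.244, adjusted p = 0.00039). Tumor 7 was lowest, at 74.9 CPM.

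**Figure D3:**
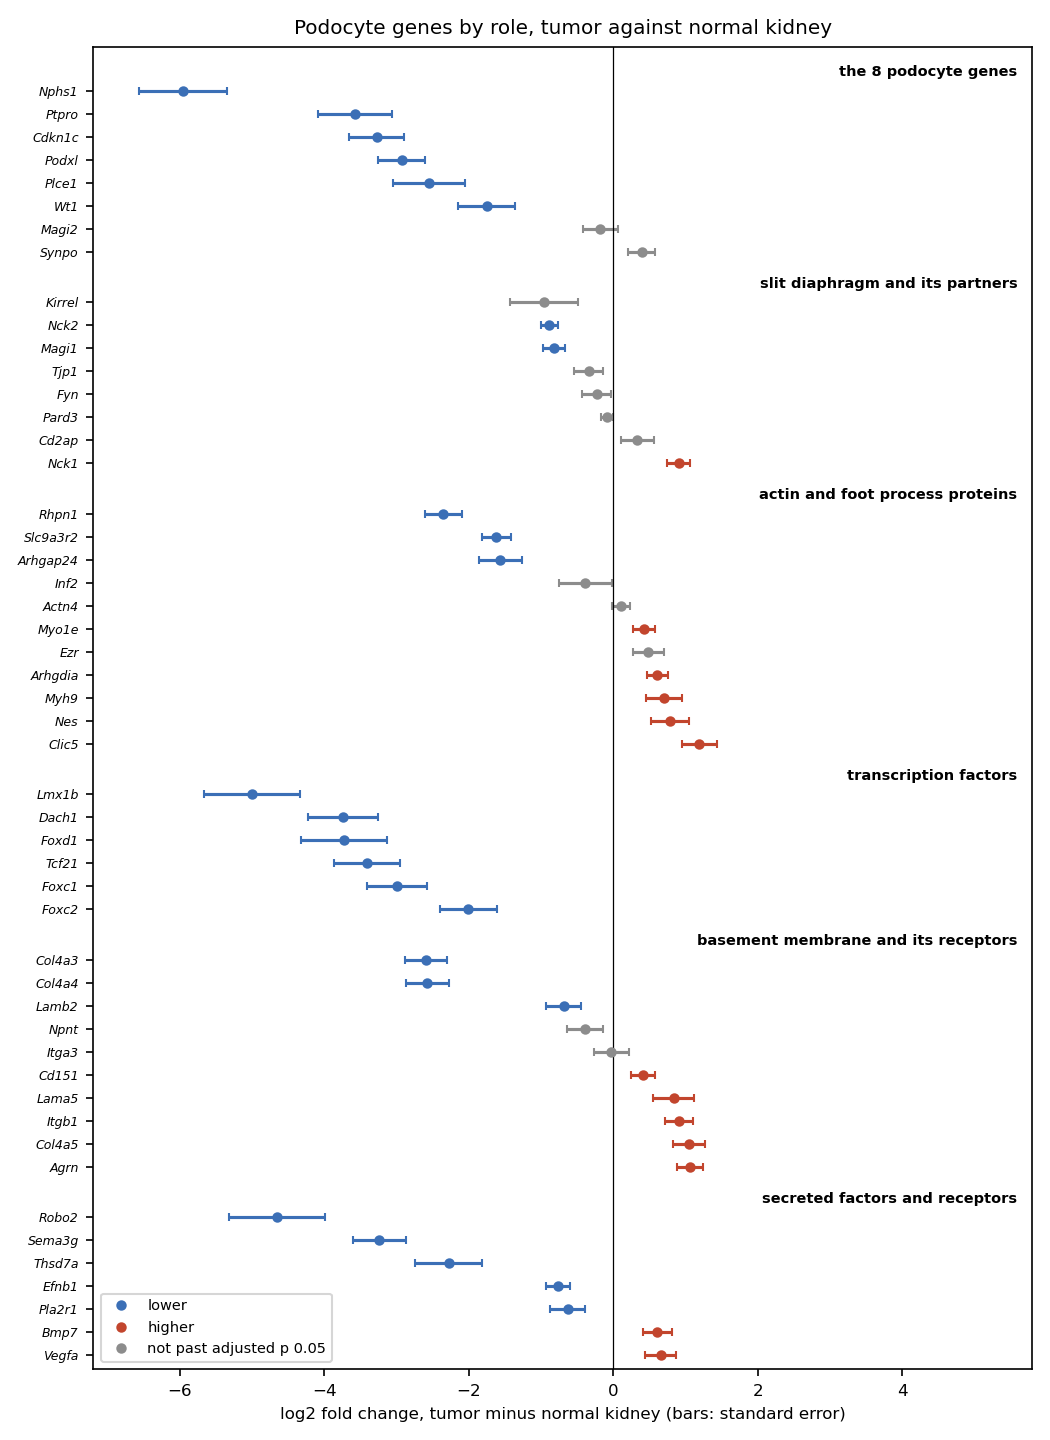
Log2 fold change, tumor minus normal kidney, of the 8 podocyte genes and of 42 of the 44 other podocyte genes tested, grouped by role. Points are estimates of the quasi-likelihood fit of edgeR over 20 libraries, bars the standard error, blue lower, red higher and gray not past an adjusted p of 0.05. Values run from -5.95 for Nphs1 to 1.19 for Clic5, and the 6 transcription factors shown were lower, of 7 tested.

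Markers of other cells were read beside these values. For comparison with the counts of markers, 23.8% of all genes tested were lower and 23.6% higher. Of glomerular endothelium 1 of 4 was lower and 0 were higher. Ehd3, a gene selective for these cells within the kidney, fell from a median of 47.9 to 18.2 CPM (log2 fold change -1.26, adjusted p = 0.00020). For Ehd3 the median tumor had 37.9% of the median normal kidney, and for Nphs1 0.784%. Plat (log2 fold change -0.008), Emcn (-0.002) and Kdr (-0.62) did not pass the test. Of mesangial markers 2 of 4 were lower, Gata3 and Itga8, and Pdgfrb and Agtr1a did not pass. Gata3 fell from a median of 14.8 to 0.112 CPM (log2 fold change -5.08), and Itga8 had a log2 fold change of -2.61. Of general endothelium 2 of 5 were lower and 1 higher, and of parietal epithelium 1 of 4 lower and 1 higher. Of smooth muscle 0 of 4 passed, and of fibroblasts 1 of 4 and of mesothelium 1 of 5 was lower. All 3 tested markers of the loop of Henle and distal tubule and all 4 of the collecting duct were lower, with medians of -11.26 and -6.41. Proximal tubule markers had a median log2 fold change of 0.02 over 5 genes, 1 of which was lower. Of macrophage markers 4 of 5 were higher, and the 5 summed to 76.7 to 255.5 CPM in normal kidneys (median 115.7) and to 210.5 to 964.3 CPM in tumors (median 301.4). B cell markers were too low to be tested. The median tumor had 0.0174% of the median normal kidney for Umod, the uromodulin gene of the loop of Henle, and 39.7% for Slc34a1, the proximal tubule phosphate transporter gene, which did not pass the test (adjusted p = 0.081).

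Tumor 7 was the highest tumor for Nphs1, Podxl, Ptpro, Cdkn1c and Plce1, and for 24 of the 47 other podocyte genes. How often it was highest over all genes was not counted, so the 24 cannot be read as particular to podocyte genes. Tumor 7 had 5.55% of the median normal kidney for Nphs1, 26.8% for Ptpro, 27.1% for Podxl, 43.2% for Cdkn1c and 85.9% for Plce1. In the other 9 tumors these shares reached at most 2.86%, 10.7%, 16.1%, 9.06% and 21.9%. For Wt1 it was the third highest, and for Magi2 the lowest. Tumor 7 was also highest for 4 of 4 fibroblast markers, which summed to 2167 CPM against 54.3 to 241.4 CPM in the other tumors, and for 4 of 4 smooth muscle markers (681.5 against 29.9 to 137.6 CPM). Its 5 mesothelial markers summed to 57.2 CPM, against 1.08 to 9.18 CPM in other tumors, and it was highest for 3 of the 5. Upk1b alone gave 39.8 CPM of this sum, and 3 other tumors had no count of Upk1b. The 5 proximal tubule markers of tumor 7 summed to 796.2 CPM, the lowest of all tumors. It also had the highest sum of the tumors for markers of macrophages (964.3 CPM, against at most 539.2) and endothelium (681.7 against 616.8). The same held for mesangium (135.2 against 92.8) and collecting duct (26.3 against 9.35 CPM). Aqp3 alone gave 23.6 CPM of the last sum. Tumor 7 was highest for 4 of 5 macrophage, 4 of 5 endothelial, 3 of 4 mesangial and 2 of 4 collecting duct markers. The part of these cells in the values of tumor 7 was not tested. With both tumor 7 and kidney 9 left out, the same 6 genes were lower, Nphs1 by 105.9-fold, Ptpro by 18.4-fold, Cdkn1c by 16.0-fold, Plce1 by 11.8-fold, Podxl by 9.80-fold and Wt1 by 3.93-fold.

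Normal kidney 9 was the lowest normal kidney for all 8 genes, and for 31 of the 44 other podocyte genes tested. How often it was lowest over all genes was not counted, so these counts cannot be read as particular to podocyte genes. Kidney 9 had 8.22% of the median of the other 9 normal kidneys for Ptpro, 8.59% for Nphs1, 14.1% for Podxl, 17.1% for Magi2, 19.9% for Wt1, 20.2% for Plce1, 33.3% for Synpo and 57.4% for Cdkn1c. Cdkn1c, at 2039 bases, is the shortest of the 8. Over the 52 podocyte genes tested, the 26 genes of 6000 bases or longer had a median of 25.3%, the 20 genes of 3000 to under 6000 bases of 44.7% and the 6 shorter genes of 116.7%. Over all genes tested the corresponding medians were 53.1%, 92.4% and 170.5%. The podocyte transcription factors Tcf21 and Foxc1, the latter chosen after its values were seen, were higher in kidney 9 (32.0 and 27.7 CPM) than in any other normal kidney. The part of gene length in the low values of kidney 9 was not tested for single genes.

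**Figure D4:**
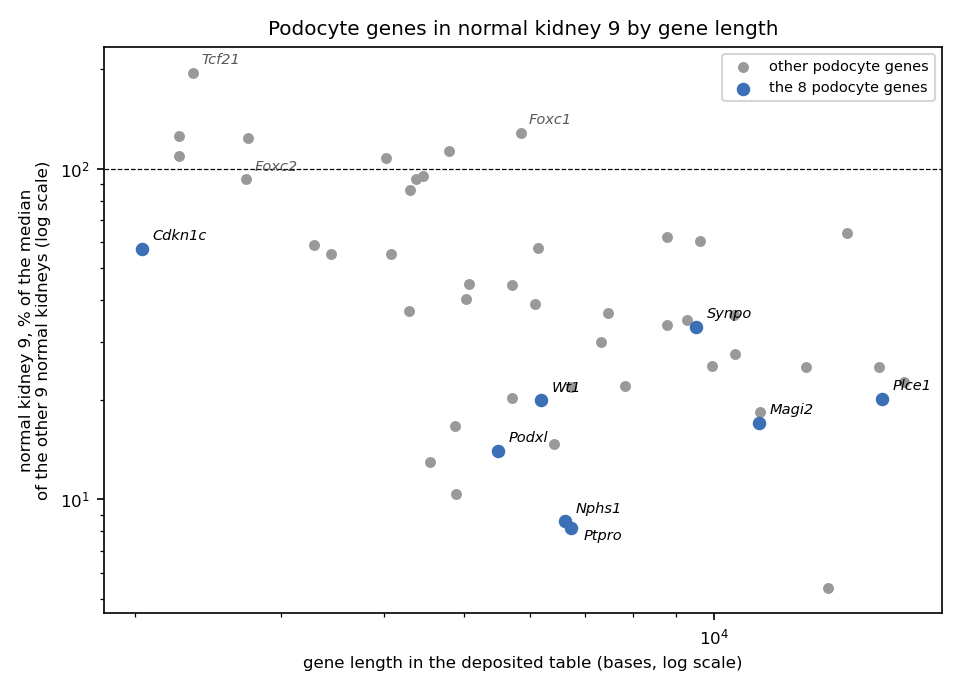
Level of normal kidney 9 as a percentage of the median of the other 9 normal kidneys (log scale) against gene length in bases (log scale), for the 8 podocyte genes (blue) and 42 of the 44 other podocyte genes tested (gray). The dashed line marks an equal level. All 8 genes lay below it, from 8.22% for Ptpro to 57.4% for Cdkn1c. Of other short genes, Tcf21 (2349 bases, 195.5%) lay above it and Foxc2 (2725 bases, 93.2%) below it.

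Whether the 8 genes varied together from kidney to kidney was examined within each group, over 28 pairs per group and with adjustment over 56. In normal kidneys 28 of 28 pairs had a positive Pearson's r with a median of 0.92, and 24 had an adjusted permutation p under 0.05. This rested on kidney 9. Without it the median r was 0.54, 10 pairs had an exact permutation p under 0.05 before adjustment and 0 after it, and without kidney 3 the count after adjustment was 6. Wt1 and Ptpro had the highest r over 10 kidneys (0.98, rho = 0.48, permutation tests, adjusted p = 0.015 and 0.42), which was 0.77 without kidney 9 and 0.48 without kidneys 9 and 3, the farthest from the median. Synpo and Cdkn1c had the lowest (0.61, rho = 0.50, adjusted p = 0.10 and 0.38, permutation tests), and r was 0.14 without kidney 9 and -0.52 without kidneys 9 and 3. Ptpro and Magi2 was the only pair in normal kidneys past the threshold by both r (0.91, adjusted p = 0.0097) and rho (0.92, adjusted p = 0.034, permutation tests), and r was 0.85 without the 2 farthest kidneys.

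In tumors the same pairs were examined. Of 28 pairs 19 had a positive r, the median was 0.21, and 4 pairs had an adjusted permutation p under 0.05. They were Cdkn1c with Plce1, Ptpro with Plce1, Podxl with Ptpro and Podxl with Cdkn1c. The highest r was that of Cdkn1c and Plce1 (0.87, rho = 0.55, permutation tests, adjusted p = 0.038 and 0.33), which rested on tumor 7, since r was 0.39 without it and 0.54 without tumors 7 and 2. Ptpro and Plce1 kept their relation, with r = 0.83, rho = 0.88 (permutation tests, adjusted p = 0.024 and 0.040) and r = 0.80 without the 2 farthest tumors. The lowest r was that of Magi2 and Cdkn1c (-0.83, rho = -0.39, permutation tests, adjusted p = 0.054 and 0.46), and it was -0.35 without tumors 7 and 10. Leaving out tumor 1, 4 or 7 gave 2 pairs past the threshold. Ptpro and Plce1 were among the pairs past it with each tumor left out. Without tumor 1 or 4 the other pair was Cdkn1c with Plce1. Without tumor 7 it was Wt1 with Magi2, whose r was 0.20 over 10 tumors and 0.78 without tumor 7 (exact permutation test, adjusted p = 0.031), and the other 3 pairs of the 4 no longer passed.

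Nphs1 was then set against genes of other nephron parts, to see which of them its level followed. Of 10 relations that were adjusted together, 8 are given. In normal kidneys r with Ehd3 was 0.65, rho 0.61 (permutation tests, adjusted p = 0.057 and 0.11) and r 0.79 without the 2 farthest kidneys. Relations to tubule genes depended on kidney 9. For Aqp2, the collecting duct water channel gene, r was -0.38 (rho = 0.26, permutation tests, adjusted p = 0.30 and 0.47) over 10 kidneys and 0.91 without kidney 9, and for Slc34a1 0.29 (rho = 0.64, adjusted p = 0.42 and 0.11, permutation tests) and 0.90. For Umod r was -0.65 (rho = -0.33, permutation tests, adjusted p = 0.085 and 0.44) and -0.08 without kidney 9. Without kidneys 9 and 7 it was 0.81 for Aqp2, 0.79 for Slc34a1 and -0.54 for Umod.

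In tumors Nphs1 followed Umod, although both were low. For Umod r was 0.91 and rho 0.84 (permutation tests, adjusted p = 0.0016 and 0.018), and r was 0.76 without tumors 7 and 4 and 0.86 without tumor 7. Aqp2 gave r = 0.75 and rho = 0.63 (permutation tests, adjusted p = 0.037 and 0.11), and 0.61 without tumors 7 and 4, and it missed the threshold without tumor 1, 4, 6, 7, 9 or 10 (adjusted p up to 0.26). Aqp2 had 0 counts in 7 tumors. Ehd3 gave r = 0.39 and rho = 0.43 (permutation tests, adjusted p = 0.30 and 0.31), and 0.23 without them. Slc34a1, still abundant in most tumors, gave r = -0.39 and rho = -0.30 (permutation tests, adjusted p = 0.30 and 0.45), and 0.30 without them. All of these tumor values of Nphs1, Umod and Aqp2 rest on low counts.

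**Figure D5:**
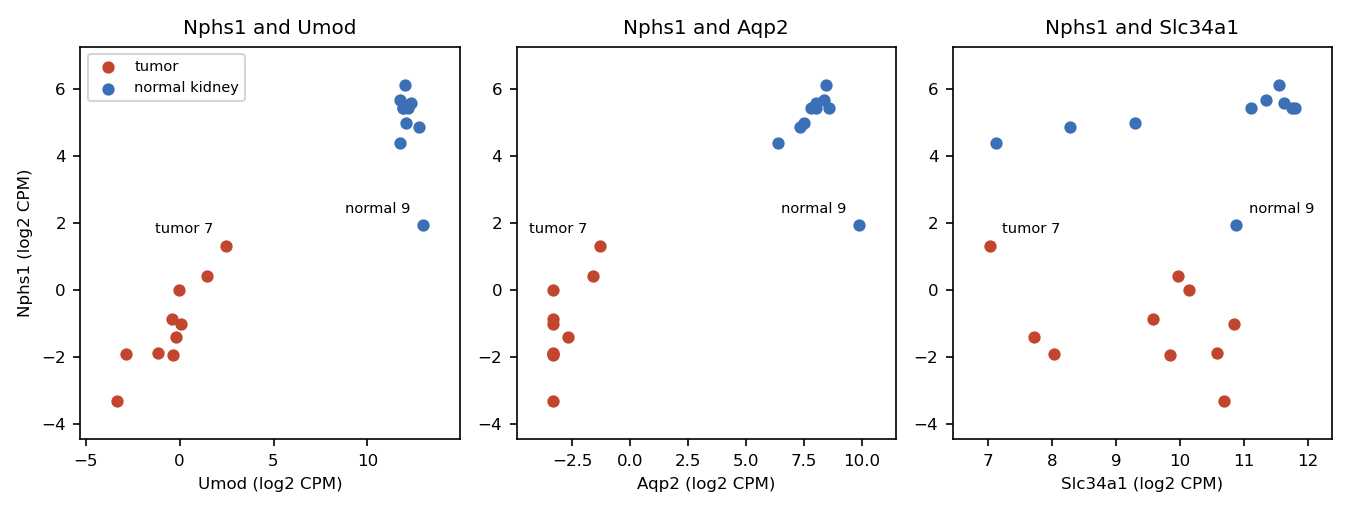
Nphs1 against Umod, Aqp2 and Slc34a1 (log2 CPM, prior count 2) in 10 tumors (red) and 10 normal kidneys (blue), each point a library. Within tumors r was 0.91 with Umod, 0.75 with Aqp2 and -0.39 with Slc34a1. Kidney 9 lay below the other normal kidneys for Nphs1 and above them for Umod and Aqp2.

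The genes whose pattern was most like that of Nphs1 were sought among all 15354 genes by Pearson's r of log2 CPM, as a description. Over the 10 tumors these were Gm5786 (r = 0.93), Umod (0.91), Slc26a4 (0.90), Rnase6 (0.90) and Atp6v1b1 (0.89). Slc26a4 and Atp6v1b1 are genes of intercalated cells of the collecting system, and their median was 0.0830 and 0.213 CPM in tumors against 90.6 and 119.0 CPM in normal kidneys. Lmx1b was in the 17th place (r = 0.84). Of the 8 genes, Cdkn1c (r = 0.61) and Podxl (r = 0.60) came closest, in the 676th and the 719th place, and without tumor 7 their r was 0.09 and 0.34. Without tumor 7 Umod and Atp6v1b1 had r = 0.86 each and Slc26a4 0.83. In tumors Nphs1 (median 0.338 CPM), Umod (0.736 CPM), Slc26a4 and Atp6v1b1 were all near the floor. Nphs1 and Umod had the same lowest value, -3.32 log2 CPM, in tumor 4. These r therefore rest on few counts.

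Over the 10 normal kidneys the closest genes were Phlpp1 (r = 0.99), Dnmt3a (0.99), Golga4 (0.99), Ythdf3 (0.99) and Usf3 (0.99), which have 5363 to 16642 bases and are not known as podocyte genes. Lmx1b followed in the 8th place (r = 0.98), Wt1 in the 55th (0.97) and Ptpro in the 75th (0.97). Over the 9 normal kidneys without kidney 9 the closest genes were Zdhhc23 (r = 0.98), Mfsd14a (0.97), H2-Q6 (0.97), Cd8a (0.97) and Klhl7 (0.97). Lmx1b was then in the 44th place (r = 0.94) and Wt1 in the 892nd (0.84). With 9 or 10 libraries and this many genes, places this close in r carry little weight.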

How the data were processed

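Bulk RNA of 10 tumors and 10 normal kidneys was sequenced as paired reads of 150 bases. The authors deposited raw counts per gene, made by the sequencing company on mm10 (GRCm38). The aligner, the counting tool and the use of strand are not given in the sources used here. The table had 0 rows without a gene name and 0 unused sample columns. Groups and replicate numbers came from the sample titles, and p-values measure the spread between these libraries.

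Counts were scaled by TMM factors, filtered with edgeR's filter (count minimum of 10) and tested with the quasi-likelihood test of edgeR 4.0.16 (R 4.3.3) over all 20 libraries with no covariate, adjusted by the Benjamini-Hochberg method over 15354 genes. DESeq2 1.42.0 and limma 3.58.1 were alternatives, with other scalings, no filter, a gene length correction, the replicate block, a prior count of 0.5 and each library left out. Leaving out kidney 9 and tumor 7 together was chosen after seeing the data. Log2 CPM had a prior count of 2. Permutation tests were two-sided with 100000 resamples, or exact with fewer than 10 libraries in a group. The scripts were tested on simulated data.

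The 8 genes and the gene lists were chosen with earlier results of these data known. Named beside the 8 genes are the 3 highest called fold changes of the podocyte lists and, from among the 3 lowest, Lmx1b and Robo2. Tcf21, Col4a3 and the 5 genes closest to Nphs1 in each set of libraries are named too. Of the listed genes, 2 are counted in the lists but are not reported here. Gene length is that of the deposited table. Promoter sequences are from RefSeq (GRCm38.p6).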

Additional observations from a re-analysis of the deposited data

Results flagged for a closer look

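For each of the 8 genes, the highest and the lowest library of each group of 10 was compared with its neighbour by Dixon's criterion (gap over range, critical value 0.466 for 10 libraries). It marked 8 of 16 groups. Chance marks about 1 in 20 groups, and the 8 genes share their libraries, so these marks are not independent.

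Normal kidney 9 was marked as the lowest normal kidney in 6 genes. Its log2 CPM was 1.93 for Nphs1 (next lowest kidney 4.38), 5.79 for Podxl (8.49), 1.90 for Wt1 (3.85), 5.19 for Synpo (6.68), 1.24 for Ptpro (4.25) and 1.80 for Plce1 (3.89). Tumor 7 was marked as the highest tumor for Cdkn1c, at 3.49 log2 CPM against 1.28 in the next tumor, and as the lowest for Magi2, at 3.18 against 3.51 log2 CPM. No cause was tested.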

How the results depend on the processing

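The fall of Nphs1, Podxl, Wt1, Ptpro, Cdkn1c and Plce1 held at an adjusted p under 0.05 in all alternatives and with each library left out. Their log2 fold changes ran from -6.57 to -5.79 for Nphs1 with a library left out, -3.15 to -2.83 for Podxl, -1.94 to -1.61 for Wt1, -4.05 to -3.42 for Ptpro, -3.92 to -3.18 for Cdkn1c and -3.42 to -2.42 for Plce1. With limma-voom and quality weights they were -7.48, -3.22, -2.50, -4.56, -4.05 and -3.76, the largest falls for each of them but Podxl. Synpo (0.28 to 0.46) passed the threshold with the gene length correction (0.36) and without tumor 2, where 1 of the 8 genes was higher. Magi2 (-0.31 to -0.10) passed with quality weights (-0.48). Library totals left 7 higher genes among the other podocyte genes, and leaving out a library gave 11 to 14 higher and 18 to 23 lower. The 7 ratios to Nphs1 stayed past the threshold throughout. Pairs past the threshold ranged from 0 to 25 in normal kidneys (0 without kidney 9, 6 without kidney 3) and from 2 to 6 in tumors (2 without tumor 1, 4 or 7). The correlation of Nphs1 with Aqp2 in normal kidneys ran from -0.66 (without kidney 7) to 0.91 (without kidney 9). In tumors its correlation with Aqp2 missed the threshold with a prior count of 0.5 (0.65) and with each of 6 tumors left out, and ran from 0.56 (without tumor 7) to 0.85 (without tumor 3).

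Same-numbered libraries were also fitted as pairs, although no label ties a number to a mouse. Deviations of same-numbered libraries correlated over 0.1 in 9 of 10 pairs (lowest -0.14), and 5 of 10 normal kidneys correlated best with the tumor of their own number, which is a hint of pairing from the data. The exception was the pair with kidney 9. Since not every pair was over 0.1, the pairing was not taken as established, and it remains possible, as both groups came from the same mice. With the replicate block Nphs1 had a log2 fold change of -6.25, Plce1 of -3.18, Cdkn1c of -3.62, Ptpro of -3.89, Wt1 of -1.96, Podxl of -2.98, Synpo of 0.43 and Magi2 of -0.04, and no call among the 8 genes changed. The other podocyte genes then numbered 21 lower and 14 higher. With the gene length correction Synpo was called higher without the block and not with it (adjusted p = 0.086). Tumor levels of Nphs1 and Lmx1b rest on few counts, and their correlations in tumors are limited by depth.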
